A study of Sus scrofa with 9 samples.

Results

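Pyroptosis and necroptosis are forms of regulated cell death in which the plasma membrane is breached from within and the cell spills its contents. In pyroptosis, sensors such as NLRP3 and NLRC4 assemble with the adaptor PYCARD into inflammasomes that activate caspase-1, while CASP4 encodes a caspase that senses bacterial lipopolysaccharide directly. These caspases cut gasdermin D, whose freed end forms membrane pores, and caspase-1 also matures interleukin-1β and interleukin-18. In necroptosis, the kinase RIPK3, engaged by RIPK1 or by ZBP1, phosphorylates MLKL, which then permeabilises the membrane. Both routes have been studied in kidneys that lose and regain their blood supply, as transplanted kidneys do. The array measures transcripts only, whereas activation of these proteins runs through cleavage, assembly and phosphorylation, which were not measured.

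The 8 genes CASP1, CASP4, GSDMD, NLRP3, NLRC4, PYCARD, RIPK3 and MLKL were looked up by symbol in the array's annotation, and a gene counted as measured when a probe set carried its symbol alone. This gave 4 measured genes of 8, among 12362 genes measured in all. They were CASP1 (probe set 15330152, NCBI Gene ID 397319), GSDMD (probe set 15287004, NCBI Gene ID 100515607), NLRP3 (probe set 15265342, NCBI Gene ID 100514823) and RIPK3 (probe set 15311610, NCBI Gene ID 100153263), each with 1 probe set. CASP4, NLRC4, PYCARD and MLKL were not analysed here, so the adaptor of the inflammasome and the executioner of necroptosis have no value below. No genome build is named in the sources used here, and no coordinates are given.

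Biopsies came from 9 male Yorkshire pigs of 30 kg, and each animal gave 1 array. The right kidney of every pig was kept warm without blood flow for 30 min, taken out, flushed and put back into the same animal, and the left kidney was removed at that operation. In the No Storage group (n = 3) the kidney went back at once, in the SCS group (n = 3) it first spent 8 h in static cold storage, and in the NEVKP group (n = 3) it was first perfused warm for 8 h outside the body (NEVKP, normothermic ex vivo kidney perfusion). Tissue was taken on day 3 after surgery, so all groups share warm ischemia, transplantation and loss of the other kidney, and no group is an uninjured kidney. The series design names the comparisons of SCS with No Storage, of NEVKP with No Storage and of NEVKP with SCS.

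Values are log2 intensities, with medians per array between 5.705 and 5.797 and a Pearson r between arrays of 0.974 to 0.991 across probe sets. Proximal tubule markers averaged 10.52 in No Storage, 9.90 in SCS and 10.06 in NEVKP (mean log2 value over 8 genes), none of them dim, as in kidney tissue. SLC34A1 was the weakest of these genes, at 4.01 to 4.82 in No Storage. Array weights, which fall as an array departs from the others of its group, were lowest for SCS replicate 2 (0.464) and NEVKP replicate 2 (0.565). They were highest for No Storage replicate 1 (1.62). With 1 array for each animal, they cannot tell array quality from differences between animals. With 3 arrays per group, their number bounds how precise each comparison can be. A biopsy mixes cell types, so more cells of a type and more RNA per cell cannot be told apart in any result below.

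Among the inflammasome genes, CASP1 had the largest differences between stored and unstored kidneys of the 4 measured members, at 1.79-fold in SCS and 2.08-fold in NEVKP. NLRP3 and GSDMD were higher in every NEVKP array than in every No Storage array, by 1.49-fold and 1.36-fold. RIPK3, the necroptosis kinase, stayed within a log2 range of 7.23 to 7.56 over all 9 arrays. In limma, 0 of the 4 genes passed an adjusted p of 0.05 in any comparison, so none of these differences is called. At an unadjusted p under 0.05, 1 member was higher in SCS (CASP1), 3 were higher in NEVKP than in No Storage (CASP1, GSDMD and NLRP3), and 0 differed between NEVKP and SCS.

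Across the whole array, limma called 0.162% of 19124 probe sets for SCS against No Storage, 0% for NEVKP against No Storage and 0% for NEVKP against SCS. The count for SCS, 31 probe sets, ran from 0 to 158 when single arrays were left out. At an unadjusted p under 0.05, 7.75% of probe sets were higher in SCS than in No Storage, 4.67% were higher in NEVKP than in No Storage and 3.8% were higher in NEVKP than in SCS. All arrays of the first group lay above all arrays of the second for 11.3%, 7.94% and 5.01% of probe sets in the same order. Of the 4 members this held for 1 (CASP1), 3 (CASP1, GSDMD and NLRP3) and 1 (GSDMD). The median log2 difference over the 4 members was 0.19, 0.51 and 0.20, beside 0.0096, -0.011 and -0.021 over all probe sets. The SCS median of 0.19 was 0.06 without No Storage replicate 3 and 0.10 without SCS replicate 1. Both comparisons with No Storage use the same 3 No Storage arrays, so they are not independent of each other.

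**Figure D1:**
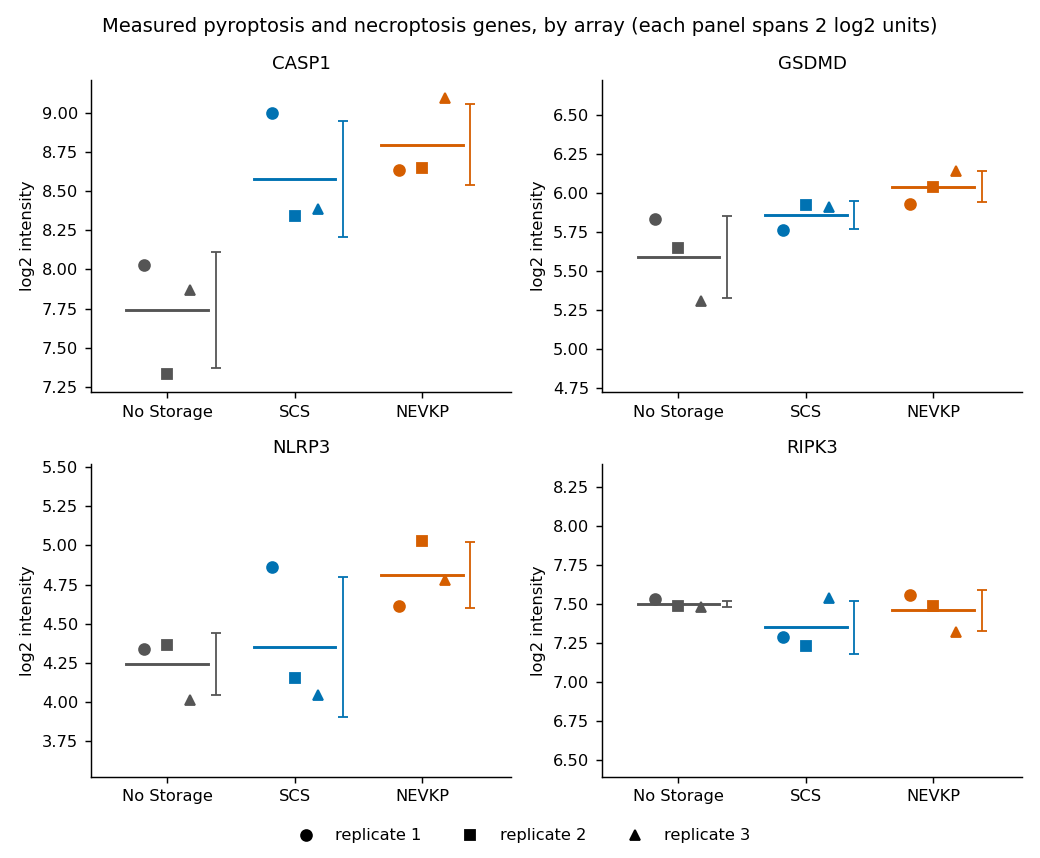
Log2 intensity of CASP1, GSDMD, NLRP3 and RIPK3 on each of the 9 arrays, grouped as No Storage, SCS and NEVKP on the horizontal axis. Points are arrays, marked by replicate, horizontal lines are group means and bars are 1 SD (n = 3). CASP1 arrays of SCS and NEVKP lie above the highest No Storage value of 8.03, whereas the RIPK3 groups overlap.

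CASP1 encodes the protease at the centre of the inflammasome. Its log2 values were 8.03, 7.33 and 7.87 in No Storage replicates 1, 2 and 3. In SCS they were 9.00, 8.34 and 8.39, and in NEVKP 8.64, 8.65 and 9.10. Every stored kidney, cold or warm, was above every unstored kidney, and SCS replicate 1 lay among the NEVKP values. Group means were 7.74 ± 0.37 in No Storage, 8.58 ± 0.37 in SCS and 8.80 ± 0.26 in NEVKP (SD, n = 3). The SCS difference from No Storage was 0.84 on the log2 scale (SE 0.23, 95% interval 0.31 to 1.36, limma adjusted p = 0.138), and 0.62 without SCS replicate 1. For NEVKP it was 1.06 (SE 0.23, 95% interval 0.54 to 1.58, limma adjusted p = 0.342). In that comparison CASP1 stood at rank 59 of all 19124 probe sets by unadjusted p, in a comparison in which no probe set passed. The NEVKP difference from SCS, 0.22, was within the spread of the arrays, with a 95% interval of -0.30 to 0.74 (limma adjusted p = 0.831). That difference ran from 0.07 without NEVKP replicate 3 to 0.43 without SCS replicate 1, and was 0.10 and 0.13 without SCS replicates 2 and 3.

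NLRP3 encodes the inflammasome sensor that responds to potassium loss and other signs of cell damage. It was a weak signal here, with values of 4.34, 4.36 and 4.01 in No Storage, beside 3.92, the log2 value below which the dimmest 25% of probe sets lie. SCS arrays read 4.86, 4.15 and 4.04, and NEVKP arrays 4.61, 5.03 and 4.78. All NEVKP arrays were thus above all No Storage arrays, while in SCS only replicate 1 was, and the other 2 fell inside the No Storage range. The NEVKP difference from No Storage was 0.57 (SE 0.22, 95% interval 0.09 to 1.06, limma adjusted p = 0.503). Against SCS, NEVKP lay 0.46 higher with a 95% interval of -0.03 to 0.94 (limma adjusted p = 0.679), and by 0.30 without SCS replicate 3 and 0.71 without SCS replicate 1. The SCS difference from No Storage was 0.11 with a 95% interval of -0.37 to 0.60 (limma adjusted p = 0.862). SCS replicate 1 set its sign, as the value was -0.14 without that array, and without No Storage replicate 3 it was -0.0013.

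GSDMD encodes gasdermin D, the pore-forming substrate of the inflammatory caspases. Values in No Storage were 5.83, 5.65 and 5.31, in SCS 5.76, 5.92 and 5.91, and in NEVKP 5.93, 6.04 and 6.14. The NEVKP arrays were the highest of all 9, but the lowest of them, 5.93, stood just above the highest SCS array, 5.92. SCS replicate 1 lay below No Storage replicate 1. NEVKP differed from No Storage by 0.44 (SE 0.15, 95% interval 0.11 to 0.77, limma adjusted p = 0.444). SCS differed from No Storage by 0.27 (95% interval -0.06 to 0.60, limma adjusted p = 0.429), and NEVKP from SCS by 0.17 (95% interval -0.16 to 0.50, limma adjusted p = 0.789). No Storage replicate 3 was the lowest array, and without it the differences from No Storage were 0.12 for SCS and 0.30 for NEVKP.

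RIPK3 encodes the kinase that passes the necroptosis signal to MLKL. Its No Storage values were 7.53, 7.49 and 7.48, a spread of 0.02 (SD, n = 3). SCS arrays read 7.29, 7.23 and 7.54, and NEVKP arrays 7.56, 7.49 and 7.32. The groups overlapped in every comparison. The difference from No Storage was -0.15 for SCS (95% interval -0.43 to 0.14, limma adjusted p = 0.652) and -0.04 for NEVKP (95% interval -0.33 to 0.24, limma adjusted p = 0.956). For NEVKP against SCS it was 0.10 (95% interval -0.18 to 0.39, limma adjusted p = 0.860). As fold values, the intervals against No Storage run from 0.742 to 1.10 for SCS and from 0.797 to 1.18 for NEVKP, so larger changes of the group means in RIPK3 transcript lie outside them. Omitting single arrays moved these small differences between -0.24 and -0.08 for SCS (without SCS replicates 3 and 2), -0.10 and 0.03 for NEVKP (without NEVKP replicates 1 and 3), and 0.04 and 0.20 for NEVKP against SCS (without SCS replicates 2 and 3).

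**Figure D2:**
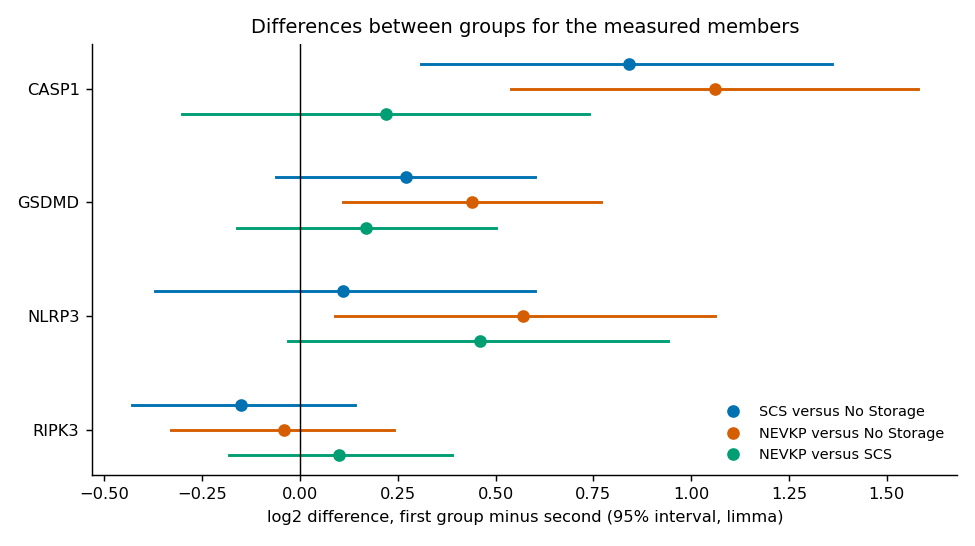
Log2 difference of each measured member (vertical axis) for SCS versus No Storage, NEVKP versus No Storage and NEVKP versus SCS, with points at the estimate and lines over the 95% interval from limma. The CASP1 intervals against No Storage start at 0.31 for SCS and 0.54 for NEVKP, and every RIPK3 interval spans 0.

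The order of group means was No Storage, SCS, NEVKP from low to high for CASP1, GSDMD and NLRP3. Of the neighbours in that order, only No Storage and SCS for CASP1 had a 95% interval, not adjusted for the number of tests, that left out 0. For RIPK3 the order was SCS, NEVKP, No Storage, and the intervals of both neighbouring pairs held 0. An F test among the groups gave limma adjusted p values of 0.193 for CASP1, 0.366 for GSDMD, 0.406 for NLRP3 and 0.813 for RIPK3, with 0.00523% of probe sets called over the array. Over the 9 arrays, Pearson r was 0.66 between CASP1 and GSDMD, 0.63 between CASP1 and NLRP3 and 0.55 between GSDMD and NLRP3, and it was -0.42, -0.20 and -0.17 between RIPK3 and these. After each group's mean was taken away, r was -0.03, 0.43 and 0.13 for the first 3 pairs, so CASP1 and GSDMD shared their order of group means but not their deviations within groups. These r values describe 9 arrays that share their groups, and no test was made.

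The genes whose profile over the 9 arrays was most like that of CASP1 were ZNF385A (r = 0.948), SLC9A9 (0.943), PARP8 (0.936), the locus LOC100511639 (0.933) and TAP2, a peptide transporter of antigen presentation (0.923). For NLRP3 they were SLC37A2 (0.960), CUL2 (0.935), FGL2 (0.921), UGCG (0.920) and B4GALT4 (0.918). GSDMD was most like PCDH19 (0.969), PLPPR2 (0.968), MIR145 (0.911), ARHGEF39 (0.903) and EVI2A (0.902). RIPK3 was most like ZNF81 (0.943), ALCAM (0.939), KIAA1644 (0.935), CDK19 (0.925) and PLEKHD1 (0.924). With 12362 genes to choose from and 9 arrays, r values of this size are a description of the arrays.

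Around the members, 73 measured genes of 130 listed symbols of the same pathways were read in 7 lists, of which 0 passed in limma in any comparison. At an unadjusted p under 0.05, 15 were higher and 6 lower in SCS than in No Storage. The same threshold gave 12 higher and 3 lower in NEVKP than in No Storage, and 6 higher and 3 lower in NEVKP than in SCS. Of all probe sets, 7.75%, 4.67% and 3.8% were higher and 7.79%, 4.4% and 3.7% lower at that threshold. All arrays of the first group lay above all of the second for 22, 22 and 5 of the 73 genes. That held for 11.3%, 7.94% and 5.01% of all probe sets. They lay below for 9, 6 and 5 of the 73 genes, and for 11.6%, 8.57% and 6.78% of all probe sets. The median difference over the 73 genes was 0.15, 0.12 and 0.03.

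**Figure D3:**
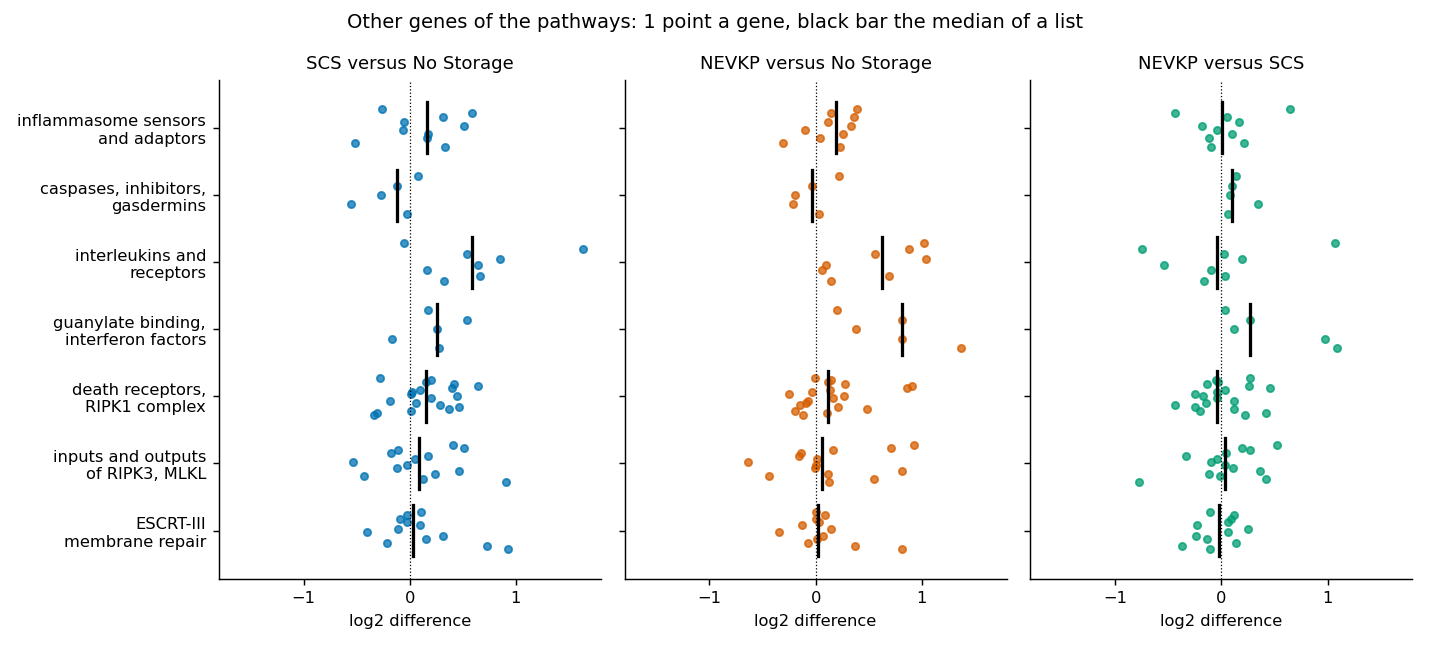
Log2 differences of 73 measured pathway genes in 7 lists (vertical axis), with 1 panel for each comparison, 1 point for each gene and a black bar at the median of the list. The guanylate binding and interferon list has medians of 0.26 in SCS and 0.81 in NEVKP against No Storage, and the median of the ESCRT-III list lies at 0.04 and 0.02.

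Upstream of caspase-1, 10 of 19 listed sensor and adaptor symbols were measured, with 3 higher and 1 lower at an unadjusted p under 0.05 in SCS against No Storage and medians of 0.16 in SCS and 0.19 in NEVKP. Over the whole array, 7.75% of probe sets were higher and 7.79% lower in SCS at that threshold. TMEM173, which encodes the DNA-signalling adaptor STING, read 6.15, 6.04 and 6.16 in No Storage, 6.41, 7.05 and 6.65 in SCS and 6.24, 6.21 and 6.35 in NEVKP. SCS lay above both other groups without overlap, by 0.59 over No Storage (SE 0.16, limma adjusted p = 0.129), and NEVKP lay 0.44 below SCS (log2 difference -0.44, limma adjusted p = 0.622), or -0.26 without SCS replicate 2. NEK7, a kinase that binds NLRP3 in the assembled inflammasome, differed from No Storage by -0.52 in SCS (limma adjusted p = 0.142) and -0.31 in NEVKP (limma adjusted p = 0.567), and no SCS or NEVKP array reached the No Storage range. TXNIP, a thioredoxin-binding protein that has been linked to NLRP3, read 10.65, 10.63 and 10.69 in SCS and 11.25, 11.51 and 11.16 in NEVKP, with No Storage spread over both at 11.18, 11.10 and 10.47. Its NEVKP difference from SCS was 0.65 (SE 0.19, limma adjusted p = 0.564). The potassium channel gene KCNK6 differed from No Storage by 0.33 in SCS and 0.23 in NEVKP (limma adjusted p = 0.234 and 0.603). For the peptidoglycan sensor gene NOD1 the differences were 0.51 and 0.33 (limma adjusted p = 0.273 and 0.662). For PANX1, a channel that releases ATP, they were 0.31 and 0.36 (limma adjusted p = 0.385 and 0.546). The NOD1 difference in SCS was 0.31 without SCS replicate 2.

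Of the list of caspases, caspase inhibitors and gasdermins, 5 of 18 symbols were measured, with 0 higher and 1 lower at an unadjusted p under 0.05 in SCS and 0 either way in NEVKP against No Storage. Shares of all probe sets were 7.75% higher and 7.79% lower in SCS, and 4.67% and 4.4% in NEVKP. DFNA5, which encodes gasdermin E, a pore former cut by caspase-3, differed by -0.55 in SCS (limma adjusted p = 0.313) and -0.21 in NEVKP (limma adjusted p = 0.848). These were -0.34 without SCS replicate 3 and -0.03 without NEVKP replicate 3, and the NEVKP value was -0.32 without No Storage replicate 1 or NEVKP replicate 1. SERPINB1, an inhibitor of neutrophil proteases and of inflammatory caspases, read 7.73, 7.65 and 7.73 in No Storage and 7.79, 8.00 and 7.99 in NEVKP, a difference of 0.22 (limma adjusted p = 0.617). DPP8, a protease that restrains other inflammasomes, differed by -0.27 in SCS and -0.19 in NEVKP (limma adjusted p = 0.487 and 0.781), and by -0.10 without SCS replicate 2 and -0.11 without NEVKP replicate 2. GSDMA was dim on the array. The measured caspase and gasdermin genes of this list, CASP6, GSDMA and DFNA5, overlapped between the groups in every comparison.

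Of 14 listed genes of interleukins, their receptors and related proteins 8 were measured, with 5 higher at an unadjusted p under 0.05 in SCS and 2 in NEVKP against No Storage, and 0 lower in either. Over the whole array, 7.75% and 4.67% of probe sets were higher and 7.79% and 4.4% lower. IL1B, the gene of interleukin-1β, was not measured. Receptors are part of the list, so it does not measure the output of caspase-1. The median of the list was 0.59 in SCS and 0.63 in NEVKP, and -0.04 for NEVKP against SCS. IL18, a direct substrate of caspase-1, read 5.70, 5.48 and 5.29 in No Storage, 6.81, 6.04 and 5.59 in SCS and 6.15, 5.96 and 6.44 in NEVKP. NEVKP lay above No Storage without overlap, by 0.69 (SE 0.27, limma adjusted p = 0.511), while SCS replicate 3 fell inside the No Storage range and the SCS difference was 0.66 (limma adjusted p = 0.282), or 0.33 without SCS replicate 1. IL1A, an interleukin released when cells rupture, read 4.19, 3.84 and 3.78 in No Storage, 4.95, 4.45 and 4.96 in SCS and 4.46, 5.97 and 4.49 in NEVKP. Every stored kidney was again above every unstored one, by 0.85 in SCS (SE 0.35, limma adjusted p = 0.286) and 1.04 in NEVKP (limma adjusted p = 0.448). NEVKP replicate 2 was the highest, and without it the NEVKP difference was 0.54. IL1RL1, the receptor of interleukin-33, had the largest difference of the list, 1.63 in SCS (SE 0.60, limma adjusted p = 0.227), with values of 7.51, 5.68 and 4.73 against 4.74, 4.50 and 3.79 in No Storage, and 0.86 without SCS replicate 1. IL33 itself stood at 8.29 in NEVKP replicate 2 and between 5.04 and 5.94 on the other 8 arrays, and its NEVKP difference of 1.02 from No Storage was 0.11 without that array. IL18R1, a chain of the interleukin-18 receptor, was dim.

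Guanylate binding proteins open pathogen-holding vacuoles and help caspases reach lipopolysaccharide, and interferon factors induce them. Of this list 5 of 13 symbols were measured, and 3 were higher at an unadjusted p under 0.05 in NEVKP against No Storage, 2 in NEVKP against SCS and 1 in SCS against No Storage. Over the whole array the shares were 4.67%, 3.8% and 7.75% in that order. All 5 had every NEVKP array above every No Storage array, as did 7.94% of all probe sets. Only 1 had every SCS array above every No Storage array, beside 11.3% of all probe sets. GBP1 read 6.79, 5.80 and 6.37 in No Storage, 6.94, 6.39 and 6.46 in SCS and 7.26, 7.54 and 8.26 in NEVKP. Its NEVKP arrays lay above all others, by 1.37 over No Storage (SE 0.30, limma adjusted p = 0.342) and 1.09 over SCS (limma adjusted p = 0.563), and SCS overlapped No Storage (0.28, limma adjusted p = 0.722). This SCS difference was 0.02 without No Storage replicate 2, 0.51 without No Storage replicate 1 and 0.11 without SCS replicate 1. GBP2 was also highest in NEVKP, with 6.04, 6.21 and 7.31 in NEVKP and at most 5.83 elsewhere, and a difference from No Storage of 0.81 (limma adjusted p = 0.476) that was 0.42 without NEVKP replicate 3. IRF1, an interferon-induced transcription factor, read 6.38, 6.24 and 6.49 in No Storage, 7.10, 6.71 and 6.92 in SCS and 6.68, 7.41 and 7.45 in NEVKP, so that both stored groups lay above No Storage, by 0.54 and 0.81 (limma adjusted p = 0.242 and 0.395).

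**Figure D4:**
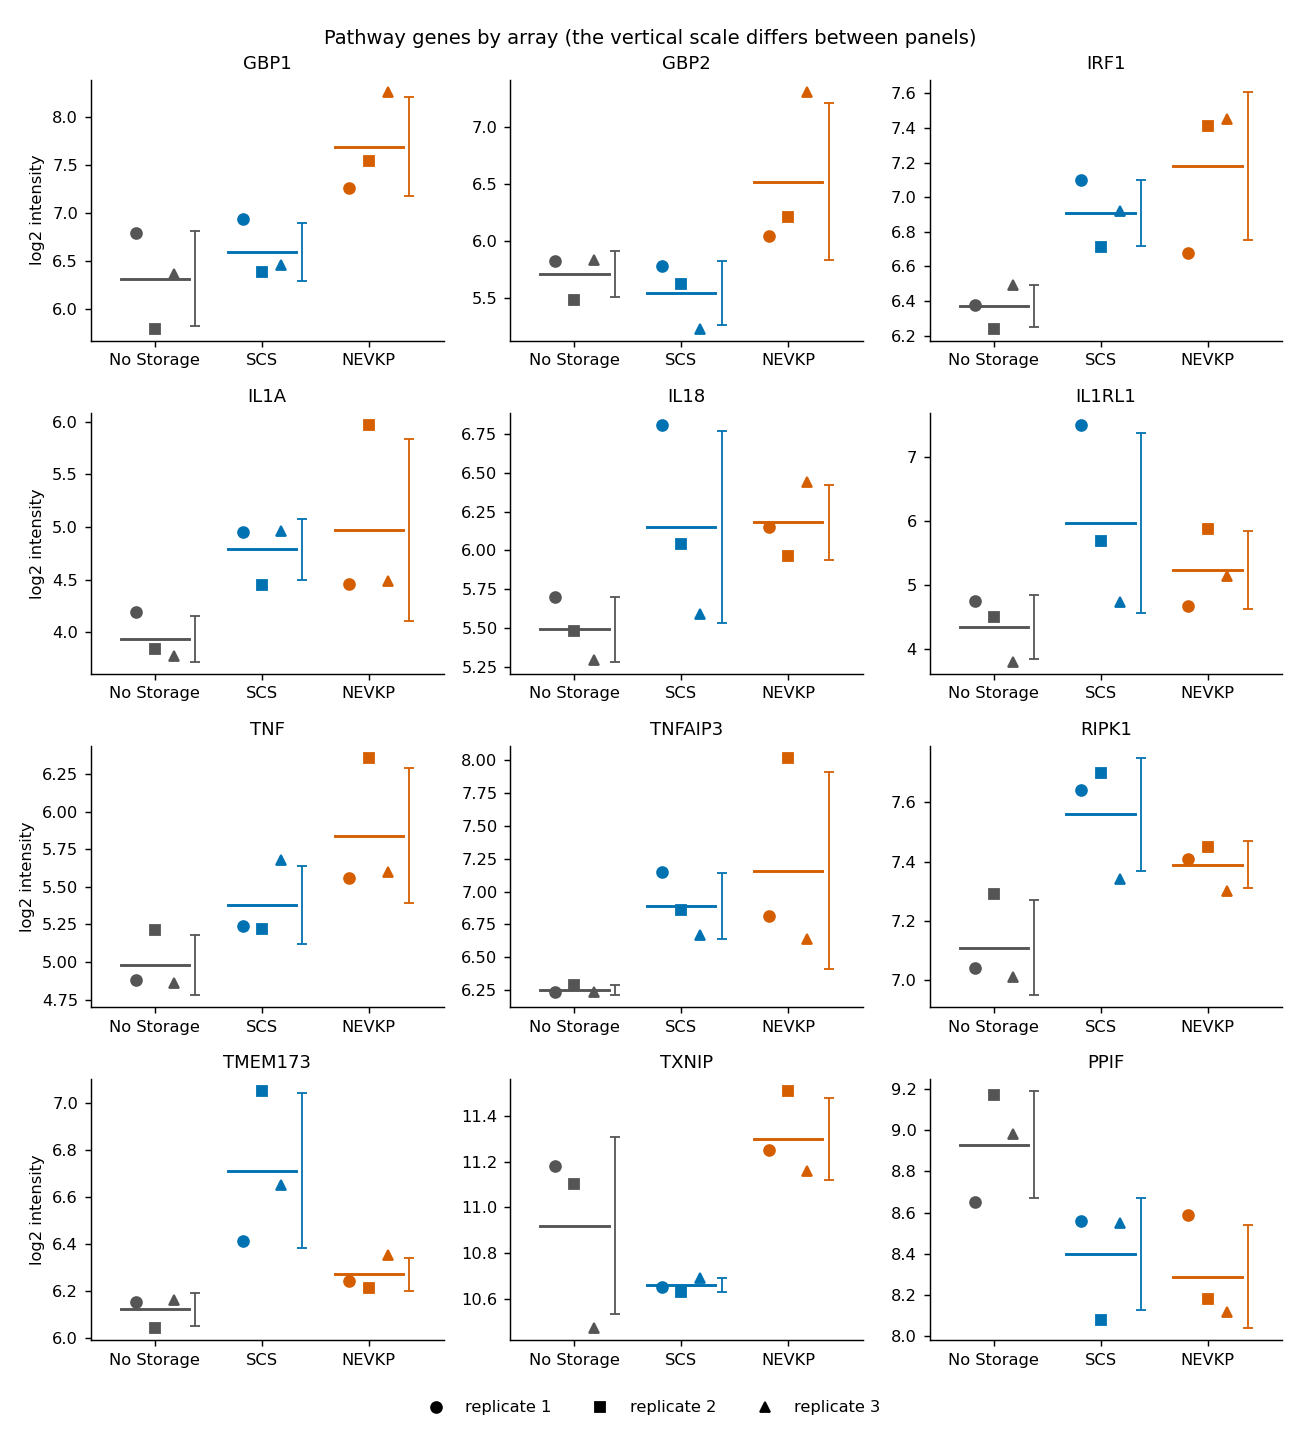
Log2 intensity of 12 pathway genes on each array, grouped as No Storage, SCS and NEVKP, with points for arrays marked by replicate, lines at group means and bars of 1 SD (n = 3); vertical scales differ between panels. GBP1 and GBP2 are highest in the 3 NEVKP arrays, TMEM173 in the 3 SCS arrays, and PPIF is lower in both stored groups than in No Storage.

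Necroptosis starts from death receptors whose signal is sorted by the RIPK1 complex. Of 27 listed genes 19 were measured, with 3 higher and 1 lower at an unadjusted p under 0.05 in SCS and 2 higher in NEVKP against No Storage, and medians of 0.15 and 0.12. Shares of all probe sets were 7.75% higher and 7.79% lower in SCS, and 4.67% higher in NEVKP. TNF, the ligand, read 4.88, 5.21 and 4.86 in No Storage, 5.24, 5.22 and 5.68 in SCS and 5.56, 6.36 and 5.60 in NEVKP. The NEVKP difference from No Storage was 0.86 (SE 0.23, limma adjusted p = 0.395), and 0.60 without NEVKP replicate 2, whereas the lowest SCS array stood just above the highest No Storage array. TNFAIP3, a ubiquitin-editing brake on this signal, was within 6.23 to 6.29 in No Storage, at 7.15, 6.86 and 6.67 in SCS and at 6.81, 8.02 and 6.64 in NEVKP. It differed from No Storage by 0.64 in SCS (limma adjusted p = 0.346) and by 0.91 in NEVKP (limma adjusted p = 0.444). This NEVKP difference was 0.48 without NEVKP replicate 2. Against SCS, the NEVKP arrays overlapped, with a difference of 0.26 (limma adjusted p = 0.847). RIPK1 itself read 7.04, 7.29 and 7.01 in No Storage and 7.64, 7.70 and 7.34 in SCS, a difference of 0.45 (SE 0.14, limma adjusted p = 0.163), beside 0.27 in NEVKP (limma adjusted p = 0.590). CYLD, which removes ubiquitin chains from RIPK1, was lowest in SCS at 6.84, 6.79 and 6.93, against 7.15, 7.17 and 7.16 in No Storage and 7.22, 7.26 and 7.33 in NEVKP. The groups did not overlap, with differences of -0.31 for SCS against No Storage (limma adjusted p = 0.204) and 0.42 for NEVKP against SCS (SE 0.11, limma adjusted p = 0.520). TNFRSF1A, the TNF receptor, and IKBKB, a kinase of NF-κB signalling, lay 0.42 and 0.46 higher in SCS than in No Storage (limma adjusted p = 0.295 and 0.238). In NEVKP they lay 0.28 and 0.21 higher than in No Storage (limma adjusted p = 0.669 and 0.766).

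Among 14 measured of 20 other genes that act on or with RIPK3 and MLKL, 1 was higher and 2 lower at an unadjusted p under 0.05 in SCS, and 3 were higher and 2 lower in NEVKP against No Storage, with medians of 0.09 and 0.06. Shares of all probe sets were 7.75% higher and 7.79% lower in SCS, and 4.67% and 4.4% in NEVKP. PPIF, cyclophilin D of the mitochondrial permeability pore, read 8.65, 9.17 and 8.98 in No Storage, 8.56, 8.08 and 8.55 in SCS and 8.59, 8.18 and 8.12 in NEVKP. Both stored groups lay below No Storage without overlap, by a log2 difference of -0.53 in SCS and -0.64 in NEVKP (limma adjusted p = 0.225 and 0.428). EIF2AK2, a sensor of double-stranded RNA, TLR4, the lipopolysaccharide receptor, and CAMK2D, a kinase that RIPK3 can activate in heart muscle, differed by 0.81, 0.71 and 0.55 in NEVKP (limma adjusted p = 0.469, 0.528 and 0.439). In SCS these genes differed from No Storage by 0.46, 0.51 and 0.13 (limma adjusted p = 0.508, 0.446 and 0.788). CAMK2G, a gene of the same kinase family as CAMK2D, went the other way. It differed from No Storage by -0.43 in SCS and -0.44 in NEVKP (limma adjusted p = 0.320 and 0.541), without overlap in either comparison. The EIF2AK2 difference in NEVKP was 0.52 without NEVKP replicate 3, and that of TLR4 was 0.37 without NEVKP replicate 2. AURKA, better known as a mitotic kinase, lay 0.91 higher in SCS than in No Storage (limma adjusted p = 0.0749) and its NEVKP difference from SCS was -0.78 (limma adjusted p = 0.520). ZBP1, a nucleic acid sensor that engages RIPK3 directly, was picked after its values were seen. It stood at 7.49 in NEVKP replicate 3 and between 5.06 and 5.91 on the other 8 arrays.

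ESCRT-III proteins shed damaged membrane and so oppose both gasdermin and MLKL pores. Of 19 listed genes 12 were measured, with 2 higher and 1 lower at an unadjusted p under 0.05 in SCS and 1 each way in NEVKP against No Storage. Those higher were the annexin genes ANXA1 and ANXA2 in SCS and ANXA1 in NEVKP, and no ESCRT-III gene was among them. The gene counted as lower was CHMP4C in both groups. Over the whole array, 7.75% of probe sets were higher and 7.79% lower in SCS, and 4.67% and 4.4% in NEVKP. The medians of the list were 0.04 and 0.02, and -0.03 for NEVKP against SCS. ANXA1 and ANXA2, annexins that also serve in inflammation and membrane repair, differed by 0.93 and 0.73 in SCS (limma adjusted p = 0.0646 and 0.136) and by 0.81 and 0.37 in NEVKP (limma adjusted p = 0.342 and 0.628). The ANXA2 difference in NEVKP was 0.17 without No Storage replicate 3 and 0.22 without NEVKP replicate 2. Among the charged multivesicular body genes of ESCRT-III itself, CHMP4C differed by -0.40 in SCS and -0.34 in NEVKP (limma adjusted p = 0.207 and 0.522), and CHMP4B by 0.31 in SCS (limma adjusted p = 0.374), or 0.19 without SCS replicate 2.

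Inflammasome transcripts are rich in macrophages. Of 15 listed monocyte and macrophage markers 11 were measured, none of them dim, and their mean log2 value per array lay between 6.48 and 6.59 in No Storage, 6.66 and 7.23 in SCS and 6.96 and 7.37 in NEVKP. All stored kidneys were above all unstored ones in this mean, but in limma 0 of the 11 genes passed in any comparison. At an unadjusted p under 0.05, 4 of them were higher in SCS and 7 in NEVKP than in No Storage, with 0 lower. Over the whole array, 7.75% and 4.67% of probe sets were higher and 7.79% and 4.4% lower at that threshold. SPI1, a transcription factor of myeloid cells, lay 1.03 higher in SCS and 0.93 higher in NEVKP than in No Storage (limma adjusted p = 0.0513 and 0.299), whereas CD14 differed by 0.13 and -0.02 (limma adjusted p = 0.886 and 0.991), ITGAM by 0.21 and 0.03, and MRC1 by 0.06 and 0.14. Of 10 neutrophil markers 5 were measured, S100A8, S100A9 and MPO of them dim, with list means of 3.67 to 4.05 in No Storage, 4.04 to 4.50 in SCS and 3.87 to 4.05 in NEVKP. The 12 measured of 13 T and NK cell markers, of which KLRB1 was dim, averaged 4.74 to 4.99, 4.86 to 5.0 and 5.06 to 5.10 in the same order. B and plasma cell markers, 6 of 9 measured and PAX5 dim, ran from 5.17 to 5.53, 5.23 to 5.71 and 5.51 to 5.81, and endothelial markers, 6 of 9 measured, from 8.15 to 8.33, 7.95 to 8.41 and 7.86 to 8.57. Proximal tubule markers, 8 of 11 measured, ran from 10.48 to 10.56, 9.60 to 10.20 and 9.56 to 10.38. Collecting duct markers, 9 of 10 measured, ran from 8.19 to 8.29, 7.30 to 7.78 and 7.74 to 7.84. For the means of both lists, every stored kidney lay below every unstored one. Not all their genes did so, as 1 gene of each list was higher in SCS than in No Storage, and 1 in NEVKP. SLC34A1 of the proximal tubule list averaged 4.43 in No Storage, 5.45 in SCS and 4.72 in NEVKP. AQP3 of the collecting duct list averaged 7.71, 7.28 and 8.14 in that order. Distal tubule and loop of Henle markers, 5 of 8 measured, were lowest in SCS, at 9.51 to 9.97, 8.41 to 9.28 and 9.58 to 10.36. Red cell and platelet markers, 5 of 9 measured with HBB, ALAS2 and PPBP dim and SLC4A1 also among the collecting duct markers, ran from 4.41 to 4.61, 4.18 to 4.54 and 4.27 to 4.44. The part of any of these cell types in the CASP1, NLRP3, GSDMD, IL18 or GBP1 values was not tested.

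**Figure D5:**
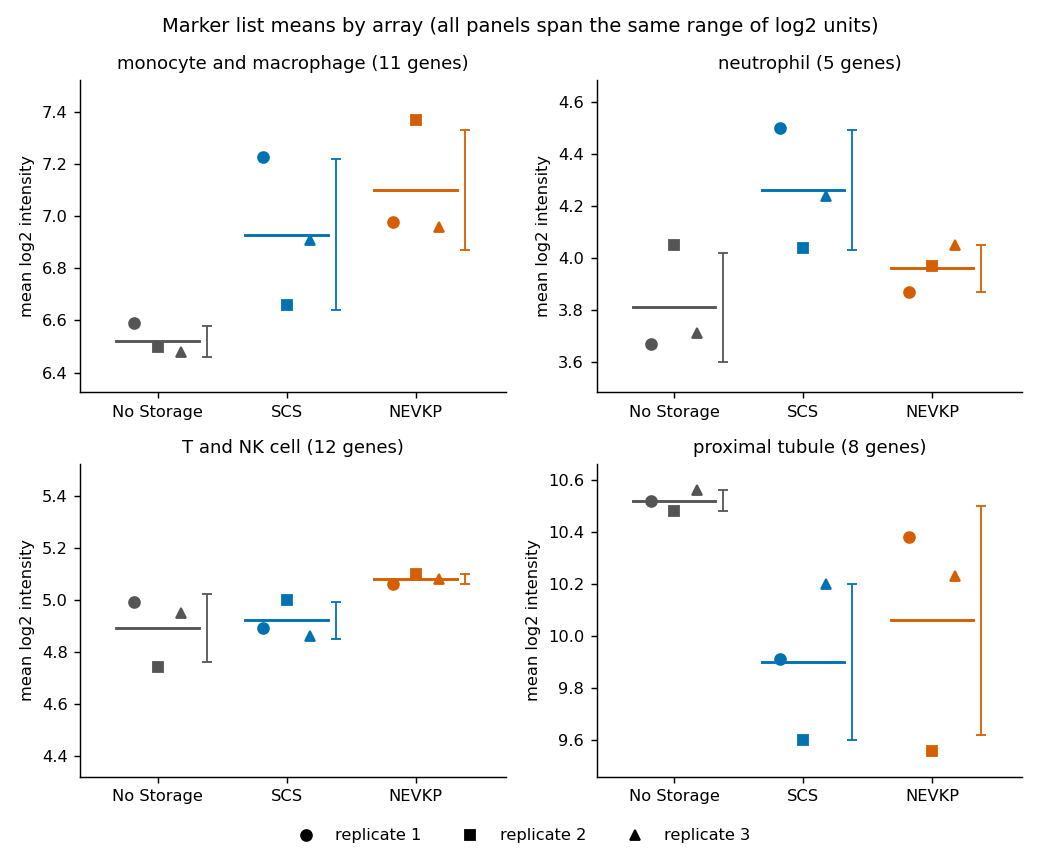
Mean log2 intensity of 4 marker lists on each array, for No Storage, SCS and NEVKP, with points for arrays, lines at group means and bars of 1 SD (n = 3). The monocyte and macrophage mean is at most 6.59 in No Storage and at least 6.66 in the stored groups, and the proximal tubule mean is at least 10.48 in No Storage and at most 10.38 in the stored groups.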

How the data were processed

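The authors deposited 1 log2 intensity for each probe set and array, made with RMA (background correction, normalisation between arrays and summing up of probes), per the submitters' processing notes, which also name limma 3.34.14. Neither the array model nor any filter is given in the sources used here, and raw scans were not used. Of 19124 probe sets, 13323 had 1 symbol in the array annotation, 357 had several and 5444 had none. A gene was represented by its probe set with the highest mean. A single model of all 9 arrays was run in R 4.3.3 with the lmFit, contrasts.fit and eBayes functions of limma 3.58.1, the group being its sole factor, 6 residual and 4.12 prior degrees of freedom, and Benjamini-Hochberg adjustment over all 19124. Each animal gave 1 array. Probe sets whose mean lay in the lowest 25%, under 3.92, were called dim. The steps were tested on simulated data. Members and lists were chosen with earlier results of these data known. Named pathway genes are those of each list and comparison with the smallest unadjusted p, up to 4, and likeness names the 5 genes of highest r. Alternatives were a replicate block, weighted arrays, a prior with trend and robust fitting, a filter on dim probe sets, centred arrays, averaged probe sets, fits to only the groups compared and leaving out each array.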

Additional observations from a re-analysis of the deposited data

How the results depend on the processing

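Under all alternatives and omissions of single arrays, 0 of the 4 measured members passed an adjusted p of 0.05 in any comparison. The CASP1 difference ran from 0.62 to 0.98 for SCS and from 0.85 to 1.20 for NEVKP against No Storage (limma adjusted p from 0.111 to 0.310 and from 0.170 to 0.721). The median over the members in SCS against No Storage, 0.19, ran from 0.06 to 0.27 over single omissions. For the members, signs turned only with omitted arrays: NLRP3 in SCS against No Storage ran from -0.14 to 0.27 and RIPK3 in NEVKP from -0.10 to 0.03. Among pathway genes, CASP6 in NEVKP against No Storage was -0.03 with centred arrays and ran from -0.05 to 0.13 over single omissions. In NEVKP against SCS these omissions gave -0.04 to 0.26 for GSDMA, -0.09 to 0.17 for DPP8, -0.07 to 0.26 for IFNGR1 and -1.37 to 0.02 for IL1RL1. ANXA1 in SCS passed without SCS replicate 3 (1.06, limma adjusted p = 0.0458).

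The 31 probe sets called for SCS against No Storage became 83 with a trended and robust prior, 93 with array weights, 82 without the dimmest 25%, 49 with centred arrays and 48 with averaged probe sets. They were 0, 1 and 0 without No Storage replicates 1, 2 and 3, 2, 0 and 147 without SCS replicates 1, 2 and 3, and 1, 158 and 2 without NEVKP replicates 1, 2 and 3. For NEVKP against SCS the count of 0 became 1 with array weights and ran from 0 to 1 over single omissions, and for the F test the count of 1 became 5 with array weights and ran from 0 to 9. The cause was not tested. With the replicate number as a block, the counts were 27, 0 and 0, and 0 for the F test. Animals share only a number: 1 of 9 same-numbered pairs had deviations correlated over 0.1, with r from -0.14 to 0.13. No array signal over background was used beyond the dim class, and NLRP3 lay near it.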
